A study of Gallus gallus with 4 samples.

Results

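The genes described here encode protein kinases of the NEK, TSSK, STK, MAP kinase, casein kinase and DYRK families, together with a few proteins named for binding or resembling them. They were taken by gene symbol: every probe set of the array whose platform symbol begins with NEK, STK or MAPK and a digit, or with TSSK, MAP2K, MAP3K, MAP4K, CSNK or DYRK. This gave 199 of the 38382 probe sets tested and 76 of the 13008 genes with a symbol. By family there were 2 TSSK, 9 NEK, 21 STK, 3 MAP4K, 14 MAP3K, 6 MAP2K, 12 MAPK-named, 6 CSNK and 3 DYRK genes. The MAPK-named group includes the scaffold genes MAPK8IP1 and MAPK8IP3 and the interactor gene MAPK1IP1L, and STK11IP is a binding partner of STK11. MAP3K7CL, counted with the MAP3K genes, is named for its likeness to the C-terminal end of MAP3K7. Not every member is therefore a kinase.

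RNA came from whole testes of males and whole ovaries of females, both 17 weeks old and both from inbred CB congenic lines of White Leghorn chickens, and nothing else is given to distinguish the groups. The 16 animals were combined into 2 testis pools and 2 ovary pools of 4 animals each, with 1 Affymetrix Chicken Genome Array per pool. Values are the authors' log2 expression values per probe set, and a difference is the testis mean minus the ovary mean, positive where testis is the higher organ. Values of different probe sets are not on a common scale, so differences are taken only between pools on the same probe set. The choice of 1 probe set per gene by brightness and the marker averages are exceptions, as they use levels across probe sets.

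Protein kinases pass signals on by adding phosphate to other proteins. In the MAP kinase cascades a MAP4K or small GTPase activates a MAP3K, the MAP3K activates a MAP2K, and the MAP2K activates a MAP kinase of the ERK, JNK or p38 type. NEK kinases act at centrosomes, spindles and cilia, TSSK kinases act in spermatids as sperm form, and many STK kinases belong to the STE20-related group that includes the Hippo kinases STK3 and STK4. Casein kinases phosphorylate clock and WNT pathway proteins, and DYRK kinases phosphorylate their own tyrosine during folding and serine or threonine in their substrates.

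The labelled organs were checked with marker genes. Spermatid markers averaged log2 12.63 and 12.65 in the testis pools, against 3.48 and 3.41 in the ovary pools (8 genes, 7 called higher in testis, the same 7 at background in ovary). Oocyte markers averaged 2.88 and 2.94 in the testis pools, against 10.57 and 10.56 in the ovary pools, and all 5 measured were called higher in ovary, with GDF9, BTG4 and NOBOX at background in testis. Granulosa cell markers averaged 6.19 and 6.09 in testis, against 11.63 and 11.68 in ovary (4 of 4 called). Of these, FOXL2 and CYP19A1 were at background in testis, while FSHR (7.78 and 7.47) and AMH (12.03 and 11.47) were well above it there. Only 1 of 4 AMH probe sets was called, and another lay on the testis side by 1.49 and did not pass. Stromal markers averaged 9.74 and 9.60 in testis, against 11.33 and 11.27 in ovary (5 of 5 called). Leukocyte markers averaged 6.57 and 6.39 in testis, against 7.41 and 7.29 in ovary. Of those 6 genes 3 were called higher in ovary and 1 in testis, and CD4 was at background in every pool. Adrenal markers averaged 2.24 and 2.23 in testis, against 8.98 and 7.84 in ovary. Of those 4 genes 3 were called higher in ovary, and all 4 were at background in testis. Spermatocyte markers gave 7 of 8 genes and Sertoli cell markers 3 of 3 called for testis. Endothelial markers gave 1 call for testis and 3 for ovary out of 4, and of 3 smooth muscle markers 0 passed in limma, and 0 had an unadjusted p under 0.05. The part of these differences in cell content in the results below was not tested. In whole organs fewer cells of a type and less RNA per cell cannot be told apart.

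Each gene was represented by its brightest probe set, judged by the mean of the 4 arrays, and a difference was called at a limma adjusted p under 0.05 over all probe sets. Of the 76 genes, 23 were called for testis (30.3%) and 21 for ovary (27.6%), and 32 missed the threshold. Among all 13008 genes the shares were 24.3% in testis and 28.7% in ovary. The counts of each family and list below are to be read beside these shares. The median difference was -0.01 for the 76 genes and -0.01 for all genes. At 4-fold or more, 12 of the 76 genes were called higher in testis (15.8%, against 10.9% of all genes) and 9 in ovary (11.8%, against 11.9%). Of the 199 probe sets, 39 were higher in testis (17.4% of all probe sets were) and 40 in ovary (18.2% were). Above background in both pools of testis and in neither of ovary were 5 genes (TSSK6, NEK5, MAP3K19, MAP3K7CL and MAPK15), or 6.58%, against 3.69% of all genes, and 7 probe sets, against 3.6% of all probe sets. In the opposite direction there were 0 genes, against 3.61% of all genes, and 6 probe sets, against 3.3%. The shares called lay close to those of all genes, and calls in both directions occurred within the NEK, STK, MAP3K, MAP2K, MAPK-named and CSNK families.

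**Figure D1:**
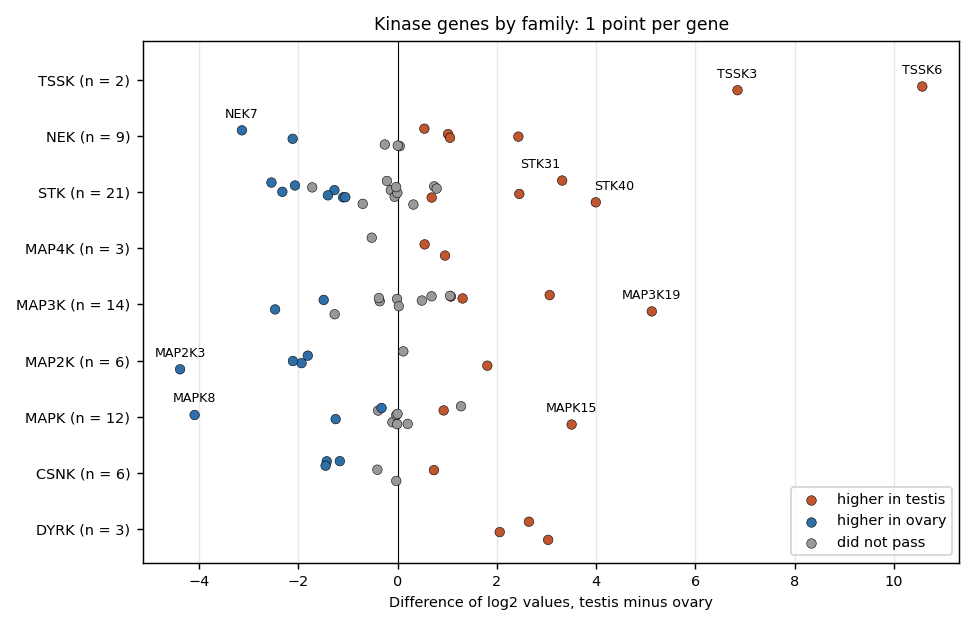
Difference of log2 values (testis minus ovary, horizontal axis) for each of the 76 genes, 1 point per gene, by family; colour gives the limma call at adjusted p under 0.05. The 2 TSSK and 3 DYRK genes all lie on the testis side, 4 of 6 MAP2K genes are called on the ovary side, and the other families have calls on both sides or are few.

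On the brightest probe sets the TSSK genes showed the largest differences of the 76 genes. TSSK6, which is needed for sperm fertility in mouse, had log2 values of 12.91 and 12.80 in the testis pools, against 2.25 and 2.32 in the ovary pools. The ovary values lay below the background level of log2 3.32, which is the 99th percentile of array probe sets for other sequences, so the difference is a lower bound of at least 740-fold (limma adjusted p = 0.000355). A second TSSK6 probe set was below background in all 4 pools. TSSK3, another spermatid kinase gene, had 10.33 and 10.33 in testis pools, against 3.09 and 3.87 in ovary pools, a difference of 6.85 (SE 0.332, adjusted p = 0.00368). Its second probe set was at 10.06 and 9.90 in testis, against 2.05 and 1.99 in ovary, at least 101-fold above ovary (adjusted p = 0.000505), and the remaining probe set was below background throughout. Both genes were thus called higher in testis on each probe set that gave a signal. The brighter TSSK3 probe set failed without testis pool 1 or 2 (adjusted p = 0.0646 and 0.0654).

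Of the 9 NEK genes, 4 were called for testis (24.3% of all genes were) and 2 for ovary (28.7%), with a median difference of 0.04. NEK5 had values of 5.16 and 5.25 in testis pools, against 2.77 and 2.77 in ovary pools, so that it was above background in testis alone and at least 3.68-fold higher there (limma adjusted p = 0.00101). NEK4 stood at 9.83 and 9.62 in testis, against 8.62 and 8.72 in ovary, a difference of 1.06 (SE 0.0994, adjusted p = 0.0115). NEK1, which acts at cilia and in the DNA damage response, was at 10.84 and 10.98 in testis, against 10.38 and 10.36 in ovary, and all 3 of its probe sets were called higher in testis (0.54, adjusted p = 0.0184 for the brightest). The testis and ovary pools of these 3 genes did not overlap, which a call from 2 pools per organ nearly requires.

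NEK6, NEK7 and NEK9 form a mitotic cascade in which NEK9 activates the other two. NEK7 had 8.63 and 8.68 in testis pools, against 11.73 and 11.84 in ovary pools, which was 8.77-fold higher in ovary (difference -3.13, SE 0.0554, limma adjusted p = 0.000973), and its second probe set was called the same way. NEK9 had 8.70 and 8.03 in testis, against 10.39 and 10.57 in ovary (-2.11, SE 0.297, adjusted p = 0.0255). Its other probe set ran from 3.97 to 7.79 between the ovary pools and did not pass. NEK6 was at 8.72 and 8.57 in testis, against 8.80 and 9.0 in ovary, and did not pass (-0.26, adjusted p = 0.231). NEK3 had overlapping pools, at 8.31 and 8.01 in testis against 8.02 and 8.21 in ovary (adjusted p = 0.894), and NEK8, a ciliary kinase gene, was below background in all 4 pools on both of its probe sets.

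NEK2, the kinase that parts centrosomes before mitosis, gave opposite answers on its probe sets. The brighter one had 11.93 and 11.92 in testis pools, against 10.89 and 10.93 in ovary pools, 2.02-fold higher in testis (limma adjusted p = 0.00143). The other had 3.26 and 3.27 in testis, at background, against 8.91 and 8.84 in ovary, at least 46.9-fold above testis (adjusted p = 0.000393). The sources used here do not say which transcripts each probe set measures, so the direction of the gene is unsettled, and it stands among the testis calls by its brighter probe set alone. Dropping a pool ended 3 of the other NEK calls. NEK1 no longer passed without ovary pool 1 or 2 (adjusted p = 0.079 and 0.0847), and NEK4 without testis pool 1 or 2 (0.0612 and 0.0529) or ovary pool 1 (0.0515). NEK9 failed without testis pool 2 (0.0602) and without ovary pool 1 or 2 (0.0853 and 0.0982).

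**Figure D2:**
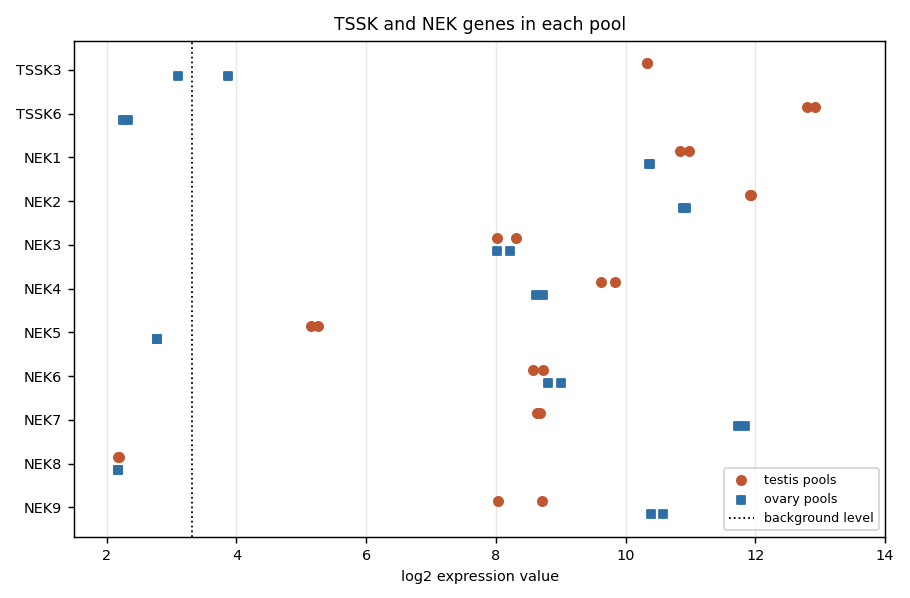
Log2 expression values (horizontal axis) of the brightest probe set of each TSSK and NEK gene in the 2 testis pools (circles) and 2 ovary pools (squares); the dotted line is the background level of 3.32. TSSK6 and NEK5 are above the line in testis alone, NEK7 and NEK9 are higher in ovary, and NEK8 is below the line in all pools.

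The list of mitotic kinases that are not NEK kinases held 14 gene names, of which HASPIN and GSG2 are the same gene. Of these names 11 were measured, and each of them was called, 4 for testis and 7 for ovary, with a median difference of -0.74. Of all genes, 24.3% were called for testis and 28.7% for ovary. WEE1, which holds back CDK1, was at 13.56 and 13.74 in testis, against 8.12 and 8.44 in ovary (5.37, limma adjusted p = 0.00185). PLK4, which starts centriole duplication, was at 12.43 and 12.27 in testis, against 7.51 and 7.93 in ovary (4.63, adjusted p = 0.0029), and the histone kinase gene GSG2 was higher in testis by 1.60 (adjusted p = 0.0296). PLK3 was at 6.73 and 6.31 in testis, against 11.54 and 11.83 in ovary (-5.17, adjusted p = 0.003). PLK2 (-3.30, adjusted p = 0.00371) and AURKB (-1.82, adjusted p = 0.00329) were also higher in ovary. Dropping testis pool 1 or 2 ended the calls of PLK4 (adjusted p = 0.0536 and 0.0531) and GSG2 (0.203 and 0.183), and dropping testis pool 1 that of AURKB (0.0502).

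Of the 21 STK genes, 4 were called for testis and 7 for ovary, while 10 missed the threshold, with a median of -0.13. STK40, which encodes a kinase-like protein, had 7.11 and 7.36 in testis pools, against 3.37 and 3.11 in ovary pools, a difference of 3.99 (SE 0.152, limma adjusted p = 0.00256), with the ovary values on either side of the background level. STK31, a germ cell gene whose product carries a Tudor domain in mammals, had 10.52 and 10.52 in testis, against 7.25 and 7.16 in ovary, 9.96-fold higher in testis (3.32, SE 0.0434, adjusted p = 0.000698). STK11 encodes LKB1, the kinase that activates AMPK and its relatives. Its values were 9.77 and 9.31 in testis, against 6.86 and 7.31 in ovary (2.45, SE 0.274, adjusted p = 0.016). A second STK11 probe set was at 9.63 and 9.83 in testis, against 2.67 and 3.79 in ovary (6.50, SE 0.489, adjusted p = 0.00763). The 2 probe sets had the same direction and differed in size. STK17B was higher in testis by 0.69 (9.38 and 9.56, against 8.80 and 8.76 in ovary, adjusted p = 0.0172). Its other probe set, above background in every pool, did not pass (0.05, adjusted p = 0.879).

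On the ovary side, STK32C had 3.88 and 4.04 in testis pools, close to background, against 6.73 and 6.26 in ovary pools (-2.54, SE 0.215, limma adjusted p = 0.00949). Only 1 of 4 STK32C probe sets was called, and the others were below background in all pools. STK10, a kinase of leukocytes and of the membrane-to-actin linkers, had 3.85 and 3.89 in testis, against 6.0 and 6.38 in ovary (-2.32, SE 0.167, adjusted p = 0.00708). This rested on 1 of its 5 probe sets, and another had ovary pools as far apart as 6.02 and 3.91. Of the 6 leukocyte markers 3 were called for ovary, 1 (PTPRC) for testis, and CD4 and CD8A did not pass, with a median difference of -0.65, and the part of leukocytes in the STK10 difference was not tested. STK38, an NDR kinase gene of the wider Hippo pathway, was at 7.79 and 7.83 in testis, against 9.73 and 10.03 in ovary (-2.06, SE 0.131, adjusted p = 0.00565), on both of its probe sets. STK4, the Hippo kinase MST1, was at 9.95 and 10.27 in testis, against 11.43 and 11.60 in ovary (-1.40, SE 0.154, adjusted p = 0.0156), also on both probe sets. Its paralog STK3 did not pass (8.69 and 8.77 in testis, against 8.17 and 8.65 in ovary, adjusted p = 0.421), nor did the STK38 paralog STK38L (-0.70, adjusted p = 0.217).

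STK26 (-1.10, limma adjusted p = 0.042) and STK32A (-1.05, adjusted p = 0.0372) were higher in ovary too. STK25 did not pass on its brightest probe set, whose ovary pools stood at 8.84 and 7.38, while its other 2 probe sets were called higher in ovary. For STK24 1 of 5 probe sets was called, for testis (1.31, adjusted p = 0.0178), and the brightest just missed the threshold (0.79, adjusted p = 0.0512). STK35 was split, with 7.33 and 6.93 in testis against 8.27 and 8.53 in ovary on the brighter probe set (-1.27, adjusted p = 0.0326), and 7.37 and 7.32 against 6.93 and 6.78 on the other (0.49, adjusted p = 0.0281). STK32B, STK36 and STK39 were below background in all pools, and STK11IP, STK16 and STK17A did not pass. Most STK calls depended on which pools were kept. Dropping testis pool 1 or 2 ended those of STK11 (adjusted p = 0.112 and 0.0932), STK32C (0.107 and 0.0996), STK10 (0.0936 and 0.0915) and STK38 (0.0819 and 0.0809). Dropping ovary pool 1 or 2 ended those of STK17B (0.0697 and 0.0778), STK32A (0.128 and 0.127) and STK26 (0.143 and 0.127), and STK26 also failed without testis pool 1 (0.0625). STK4 (0.0538 to 0.0728) and STK35 (0.0778 to 0.129) failed whichever pool was dropped.

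The partners of these kinases were read from lists of pathway genes. Of 18 measured STK11 partners and substrate kinases, 6 were called for testis and 5 for ovary, and the median difference was -0.01. The pseudokinase genes STRADA and STRADB, whose products bind and activate STK11, went opposite ways. STRADA had 10.78 and 10.73 in testis, against 9.54 and 9.49 in ovary (1.24, limma adjusted p = 0.00182). STRADB had 3.08 and 2.96 in testis, at background, against 6.28 and 6.21 in ovary, at least 7.59-fold above testis (adjusted p = 0.00104). AMPK beta subunits did the same, with PRKAB2 higher in testis (1.94, adjusted p = 0.00326) and PRKAB1 in ovary (-2.30, adjusted p = 0.0029). BRSK1 (3.56, adjusted p = 0.0144) and SIK3 (1.78, adjusted p = 0.00593) were higher in testis and SIK1 in ovary (-2.08, adjusted p = 0.00125). Dropping testis pool 1 or 2 ended the calls of BRSK1 (adjusted p = 0.0619 and 0.0764), SIK3 (0.0829 and 0.0845) and PRKAB2 (0.0588 and 0.0602), and dropping ovary pool 1 that of BRSK1 (0.0569).

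Of 16 measured Hippo pathway genes, 3 were called for testis (24.3% of all genes were) and 8 for ovary (28.7%), with a median difference of -0.55. The upstream regulator gene NF2 was at 10.59 and 10.74 in testis, against 7.41 and 7.17 in ovary (3.37, limma adjusted p = 0.00233; 1 of its 4 probe sets called), and the adaptor genes SAV1 (0.91, adjusted p = 0.00266) and MOB1B (1.45, adjusted p = 0.019) were higher in testis too. The angiomotin family gene AMOTL1 (-1.99, adjusted p = 0.00331) and the YAP target gene CYR61 (-3.43, adjusted p = 0.0135) were higher in ovary. AMOTL2, a relative of AMOTL1, had testis pools far apart, at 3.63 and 5.67, against 9.13 and 9.40 in ovary (-4.61, adjusted p = 0.0476), and the difference was -3.59 without testis pool 1 and -5.63 without testis pool 2. YAP1 itself did not pass on its brighter probe set (0.05, adjusted p = 0.921), and its other probe set was called for ovary. AMOTL1 lost its call without testis pool 1 or 2 (adjusted p = 0.056 and 0.0551), and CYR61 (0.056 and 0.0613), AMOTL2 (0.142 and 0.156) and MOB1B (0.0791 and 0.0781) without ovary pool 1 or 2. In the STRIPAK complex, which joins STK24, STK25 and STK26 to protein phosphatase 2A, 3 of 12 genes were called for testis and 6 for ovary (median -0.19). The testis calls were STRN3 (0.62, adjusted p = 0.00489), SLMAP (0.58, adjusted p = 0.0418) and FGFR1OP2 (0.44, adjusted p = 0.0308). SLMAP and FGFR1OP2 did not keep their call with each pool left out in turn. STRIP2 had 5.84 and 5.60 in testis, against 11.64 and 11.78 in ovary (-5.99, adjusted p = 0.00112), and SIKE1 was higher in ovary too (-2.09, adjusted p = 0.00235). PDCD10, which binds these STK kinases, was higher in ovary by 2.79 on the log2 scale (adjusted p = 0.00385), a call lost when testis pool 1 or 2 was dropped (0.0663 and 0.0666).

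The MAP kinase cascade was read from its top. Testis was the higher organ for 2 of the 3 MAP4K genes (median difference 0.55). MAP4K5 was at 8.35 and 8.56 in testis, against 7.45 and 7.54 in ovary (0.96, SE 0.096, limma adjusted p = 0.013), and MAP4K3 at 9.15 and 9.16, against 8.57 and 8.65 (0.55, SE 0.0388, adjusted p = 0.00689). The brightest MAP4K4 probe set missed the threshold on the ovary side (-0.52, adjusted p = 0.0725), while a dimmer one was called higher in testis (1.00, adjusted p = 0.0475). MAP4K3 failed when testis pool 1 or 2 was dropped (adjusted p = 0.0825 and 0.0832), and MAP4K5 whichever pool was dropped (0.051 to 0.062).

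The 14 MAP3K-named genes, MAP3K7CL among them, gave 4 calls for testis and 2 for ovary, and the other 8 missed the threshold (median difference 0.26). MAP3K19 had 7.98 and 8.21 in testis pools, against 2.86 and 3.09 in ovary pools, above background in testis alone and at least 27.4-fold higher there (limma adjusted p = 0.00161). MAP3K7CL, which resembles the C-terminal end of MAP3K7, was at 5.60 and 4.87 in testis, against 2.04 and 2.29 in ovary, at least 3.76-fold higher (adjusted p = 0.015). MAP3K14, the kinase of the non-canonical NF-kappa-B pathway, was at 6.43 and 5.96 in testis, against 4.78 and 4.99 in ovary (1.31, adjusted p = 0.0373). MAP3K4 is required for testis determination in mouse. It was at 9.80 and 9.74 in testis, against 8.59 and 8.79 in ovary (1.08, SE 0.0908, adjusted p = 0.00943), with all 3 probe sets called.

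MAP3K13, an activator of JNK signalling, was at 5.77 and 5.80 in testis pools, against 8.15 and 8.35 in ovary pools, 5.52-fold higher in ovary (-2.47, SE 0.0883, limma adjusted p = 0.00236). The other MAP3K13 probe set, above background in every pool, did not pass (0.07, adjusted p = 0.351). MAP3K3, which acts above MAP2K5, was at 7.99 and 7.97 in testis, against 9.33 and 9.60 in ovary (-1.49, SE 0.116, adjusted p = 0.00817), with 4 of 5 probe sets called. MAP3K1, a gene of human testis development, was the only member placed on chromosome Z by a gene table of the current chicken assembly. It was at 8.67 and 8.62 in testis, against 8.92 and 9.08 in ovary, and did not pass (-0.36, adjusted p = 0.0591). MAP3K15 was below background in all pools, and MAP3K2, MAP3K5, MAP3K7, MAP3K8, MAP3K9 and MAP3K20 did not pass, with differences between -1.27 and 1.06. MAP3K4 (adjusted p = 0.106 and 0.0997) and MAP3K3 (0.0996 and 0.1) failed without testis pool 1 or 2. MAP3K14 failed whichever pool was dropped (0.0769 to 0.126), and MAP3K7CL without testis pool 1 (0.0539) and without ovary pool 1 or 2 (0.0641 and 0.0578).

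The MAP2K genes were the family with the lowest median difference of those with at least 5 genes, at -1.87. Ovary was the higher organ for 4 of 6 genes (28.7% of all genes were called so) and testis for 1 (24.3%), and MAP2K6 missed the threshold. MAP2K3, which activates p38 kinases, had 5.80 and 5.69 in testis pools, against 10.18 and 10.06 in ovary pools, 20.8-fold higher in ovary (-4.38, SE 0.0722, limma adjusted p = 0.000888). This rested on 1 of its 5 probe sets, and another had ovary pools as far apart as 6.81 and 3.43. MAP2K1 and MAP2K2 encode the paralogous kinases MEK1 and MEK2. MAP2K1 was at 9.95 and 10.07 in testis, against 12.02 and 11.86 in ovary (-1.93, SE 0.0893, adjusted p = 0.0034), and MAP2K2 at 5.73 and 5.87, against 7.82 and 7.99 (-2.11, SE 0.0941, adjusted p = 0.00323). For both genes each of 2 probe sets was called higher in ovary. MAP2K4, which activates JNK, was at 8.18 and 8.11 in testis, against 9.94 and 9.96 in ovary (-1.81, SE 0.0347, adjusted p = 0.00106).

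MAP2K5, the activator of ERK5, was the exception in its family. It was at 9.82 and 9.97 in testis pools, against 8.23 and 7.94 in ovary pools (1.81, SE 0.142, limma adjusted p = 0.00823), with 2 of 5 probe sets called. MAP2K6, the paralog of MAP2K3, had overlapping pools (5.02 and 4.47 in testis, against 4.76 and 4.50 in ovary, adjusted p = 0.827). MAP2K5 (0.0857 and 0.0929) and MAP2K1 (0.052 and 0.0504) failed without testis pool 1 or 2.

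The 12 MAPK-named genes gave 2 calls for testis and 3 for ovary, and 7 missed the threshold (median difference -0.02). The JNK gene MAPK8 had 6.05 and 5.70 in testis pools, against 9.86 and 10.06 in ovary pools, 17-fold higher in ovary (-4.09, SE 0.173, limma adjusted p = 0.00298). Its other 2 probe sets were called higher in ovary too, by 4.31 and 3.30 on the log2 scale. The JNK paralog MAPK9 differed far less, at 10.15 and 10.13 in testis against 10.49 and 10.43 in ovary (-0.32, SE 0.0331, adjusted p = 0.0138), and MAPK10 did not pass (-0.10, adjusted p = 0.205). MAPK8 and MAP2K4, its activator, were thus both called higher in ovary.

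Of the p38 genes, MAPK12 was at 6.60 and 6.54 in testis pools, against 7.87 and 7.76 in ovary pools (-1.25, SE 0.0555, limma adjusted p = 0.00321), on 3 of 5 probe sets. MAPK11 did not pass (-0.02, adjusted p = 0.905), and MAPK13 was below background in all pools. MAPK14 had a bright probe set with nearly equal values, 11.51 and 11.46 in testis against 11.50 and 11.48 in ovary (-0.01, SE 0.0307, adjusted p = 0.932). A dimmer MAPK14 probe set was at 7.96 and 7.81 in testis, against 4.22 and 3.71 in ovary, 15.1-fold higher in testis (3.92, SE 0.231, adjusted p = 0.00504). The atypical MAP kinase genes were both called higher in testis on their brightest probe sets. MAPK15, which acts in cilium formation, was at 6.86 and 6.57 in testis, against 3.21 and 3.21 in ovary, at least 10.5-fold higher (adjusted p = 0.00235) on 1 of 3 probe sets. MAPK4 was at 10.63 and 10.64, against 9.69 and 9.72 (0.93, SE 0.0212, adjusted p = 0.00132), on 1 of 4 probe sets. A nearly as bright MAPK4 probe set, at 9.98 and 10.52 in testis against 9.79 and 10.35 in ovary, did not pass (0.18, adjusted p = 0.781). A dim one lay on the ovary side and did not pass (-0.49, adjusted p = 0.377). MAPK8IP1, MAPK8IP3 and MAPK1IP1L did not pass, though 1 probe set of MAPK8IP1 was at least 4.32-fold above testis (adjusted p = 0.000753). MAPK9 failed without testis pool 1 or 2 (0.103 and 0.109) and without ovary pool 1 (0.0638), and MAPK12 without testis pool 2 (0.0524).

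**Figure D3:**
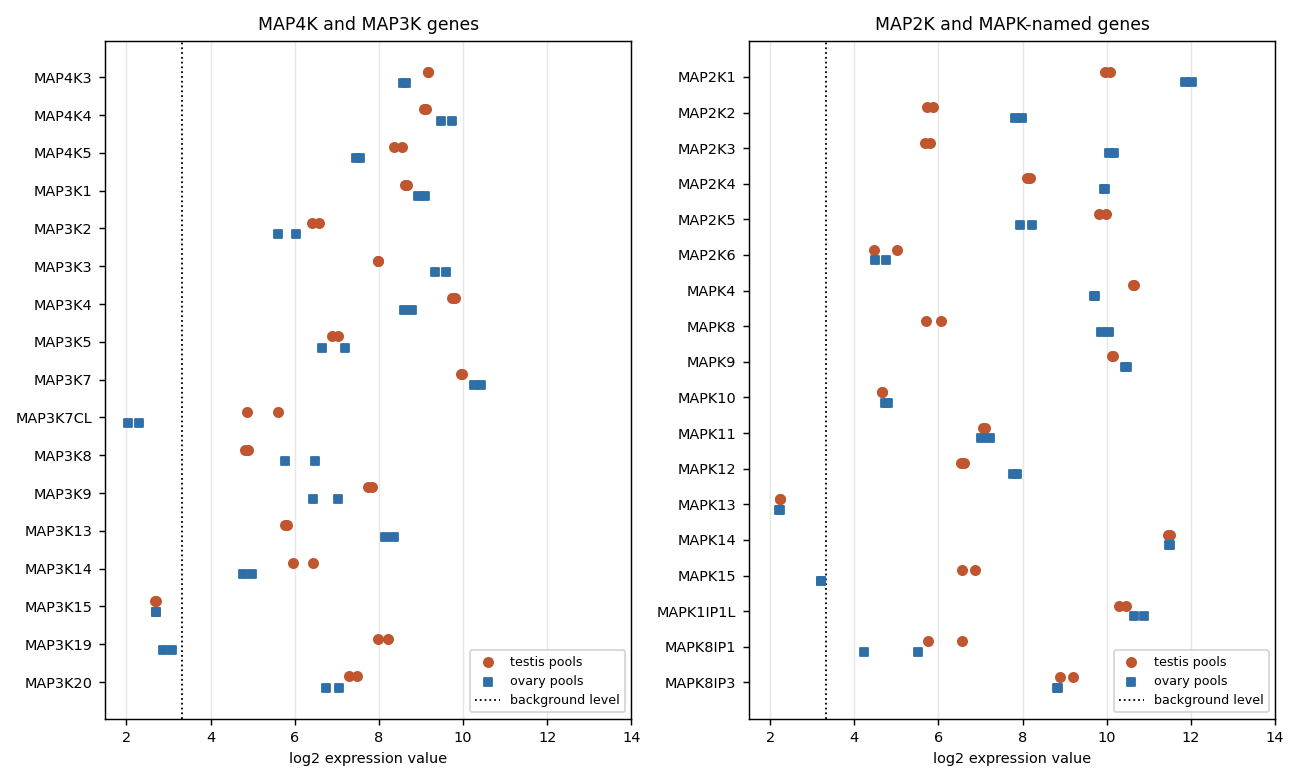
Log2 expression values (horizontal axis) of the brightest probe set of each MAP4K, MAP3K, MAP2K and MAPK-named gene in the 2 testis pools (circles) and 2 ovary pools (squares); the dotted line is the background level of 3.32. MAP2K1 to MAP2K4 and MAPK8 lie to the right in ovary, and MAP3K19, MAP3K7CL and MAPK15 are above the line in testis alone.

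Genes that feed, scaffold and restrain the MAP kinases were next read from lists. Of 15 measured Ras, Raf and adaptor genes, 2 were called for testis and 5 for ovary, with a median difference of -0.64. MOS, the oocyte kinase that acts as a MAP3K above MAP2K1, had 2.12 and 1.95 in testis pools, at background, against 9.91 and 9.41 in ovary pools, at least 80.8-fold higher in ovary (limma adjusted p = 0.00183; 1 of 2 probe sets called). HRAS was higher in ovary by 2.46 on the log2 scale (adjusted p = 0.0134) and SOS2 by 1.59 (adjusted p = 0.00671). BRAF (1.25, adjusted p = 0.048) and RRAS (0.42, adjusted p = 0.0431) were higher in testis. Dropping testis pool 1 or 2 ended the calls of BRAF (adjusted p = 0.269 and 0.215) and RRAS (0.192 and 0.206), and SOS2 failed without testis pool 2 (0.0542). Dropping ovary pool 1 or 2 ended those of RRAS (0.0874 and 0.0522) and HRAS (0.0597 and 0.0612).

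Of 17 downstream kinases, scaffolds and adaptors, 3 were called for testis and 7 for ovary, around a median difference of -0.00. The ribosomal S6 kinase genes, whose products act below MAP kinases, split. RPS6KA2 was at 7.39 and 7.89 in testis, against 5.19 and 4.91 in ovary (2.59, limma adjusted p = 0.0118), and RPS6KA3 was higher in testis by 1.91 (adjusted p = 0.049). RPS6KA1 was at 3.38 and 3.25 in testis, against 6.43 and 6.40 in ovary (-3.10, adjusted p = 0.00107). RPS6KA5 (0.55, adjusted p = 0.0519) and RPS6KA6 (0.57, adjusted p = 0.087) did not pass on their brightest probe sets. Of their dimmer probe sets, 1 of RPS6KA5 and 2 of RPS6KA6 were called for testis. The remaining testis call of the list was MKNK1 (0.52, adjusted p = 0.0143), which did not keep its call with each pool left out in turn. LAMTOR3, a scaffold that binds MAP2K1, was higher in ovary (11.27 and 11.06 in testis, against 13.68 and 13.65 in ovary, adjusted p = 0.00235), as was the docking protein gene GAB1 (-2.28, adjusted p = 0.00969). RPS6KA2 (0.0558 and 0.0675) and GAB1 (0.0607 and 0.0533) failed without testis pool 1 or 2. RPS6KA2 also failed without ovary pool 2 (0.0502), and RPS6KA3 without ovary pool 1 or 2 (0.154 each).

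MAP kinase phosphatases, which switch MAP kinases off and are themselves induced by MAP kinase signalling, gave 7 of 8 genes called for ovary and 0 for testis, with a median difference of -4.17 (limma; 28.7% of all genes were called higher in ovary, and the median of all genes was -0.01). DUSP1 had 6.80 and 6.63 in testis pools, against 12.63 and 12.40 in ovary pools (-5.80, adjusted p = 0.00128). DUSP6, a cytoplasmic member, had 5.47 and 5.37 in testis, against 10.17 and 10.92 in ovary (-5.13, adjusted p = 0.00571). DUSP4 had 2.56 and 3.21 in testis, at background, against 7.59 and 8.35 in ovary, at least 25-fold above testis (adjusted p = 0.00931). DUSP8 was the member that did not pass (-0.004, adjusted p = 0.943), at or below background. Each of the 7 had both testis pools below both ovary pools, which a call from 2 pools per organ nearly requires. Of 15 measured genes listed as responding to MAP kinases, in RNA or protein, or feeding back on them, 10 were called for ovary and 0 for testis. Their median difference was -1.17. The transcription factor genes ELK3 and SRF were among these 10, and MAP kinase activity itself was not tested. MYC had 2.95 and 3.01 in testis, against 8.24 and 8.38 in ovary, at least 31.6-fold higher (adjusted p = 0.000672). The feedback inhibitor gene SPRY1 was at least 9.11-fold above testis in ovary (adjusted p = 0.00313) and ATF3 at least 2.64-fold above testis (adjusted p = 0.00236). FOS was at background in all pools, and ELK4 did not pass (-0.12, adjusted p = 0.481). DUSP6 (adjusted p = 0.0816 and 0.0836), DUSP4 (0.0884 and 0.0788) and SPRY1 (0.0581 and 0.0584) failed without testis pool 1 or 2.

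**Figure D4:**
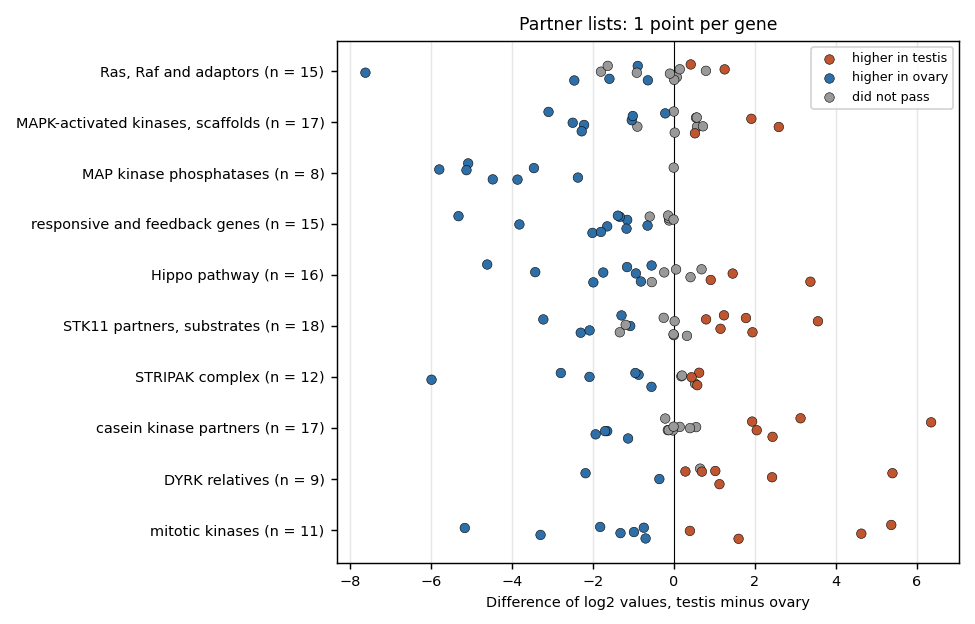
Difference of log2 values (testis minus ovary, horizontal axis) for the measured genes of 10 partner lists, 1 point per gene, coloured by the limma call at adjusted p under 0.05. All called MAP kinase phosphatases and responsive or feedback genes lie on the ovary side, while the DYRK relatives have 6 of 9 genes called on the testis side.

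Casein kinase genes gave 1 call for testis and 3 for ovary out of 6, with a median difference of -0.78. CSNK2A1 and CSNK2A2 encode the catalytic subunits of casein kinase 2. CSNK2A2 was at 6.45 and 6.21 in testis pools, against 7.83 and 7.72 in ovary pools (-1.45, SE 0.113, limma adjusted p = 0.0082), and CSNK2A1 at 8.38 and 8.02, against 9.36 and 9.36 (-1.16, SE 0.157, adjusted p = 0.0234). CSNK1D, a clock kinase gene, was at 8.29 and 8.35 in testis, against 9.75 and 9.73 in ovary (-1.42, SE 0.0341, adjusted p = 0.00139). Only 2 of its 4 probe sets were called, the other by -0.39 (adjusted p = 0.0392). A further CSNK1D probe set lay on the testis side and did not pass (0.67, adjusted p = 0.0959). The close CSNK1D paralog CSNK1E did not pass (-0.41, adjusted p = 0.0652), nor did CSNK1A1, whose values were 11.57 and 11.64 in testis against 11.65 and 11.61 in ovary. CSNK1G1 was higher in testis on its brightest probe set (11.91 and 11.92, against 11.28 and 11.09 in ovary, 0.73, adjusted p = 0.0163) and on another, and higher in ovary on a dimmer one (8.38 and 8.06 in testis, against 9.24 and 9.09 in ovary, adjusted p = 0.0343). CSNK1G1 failed without testis pool 1 or 2 (0.144 and 0.14), and CSNK2A1 without ovary pool 1 or 2 (0.091 and 0.0924).

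Among 17 clock and WNT partners of the casein kinases, 5 were called for testis and 4 for ovary (median difference -0.01). APC, the destruction complex scaffold gene, was at 9.36 and 10.19 in testis, against 3.34 and 3.49 in ovary (6.36, limma adjusted p = 0.00471; 3 of 4 probe sets called). FAM83H (3.13, adjusted p = 0.0295) and FAM83D (2.44, adjusted p = 0.00355), whose products bind casein kinase 1, were higher in testis too. The WNT target gene AXIN2 (-1.93, adjusted p = 0.0145) and the ubiquitin ligase genes FBXW11 (-1.70, adjusted p = 0.0458) and BTRC (-1.65, adjusted p = 0.00788) were higher in ovary. FAM83H (adjusted p = 0.206 and 0.18) and BTRC (0.0686 and 0.0615) failed without testis pool 1 or 2, and AXIN2 (0.0609 and 0.0653) and FBXW11 (0.138 and 0.152) without ovary pool 1 or 2.

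All 3 DYRK genes were called higher in testis by at least 4-fold, against 10.9% of all genes (median difference 2.65). DYRK2 had 11.10 and 11.19 in testis pools, against 7.99 and 8.25 in ovary pools, 8.19-fold higher in testis (3.03, SE 0.119, limma adjusted p = 0.00268), with 3 of 4 probe sets called. DYRK1A had 9.02 and 9.09 in testis, against 6.51 and 6.31 in ovary (2.65, SE 0.0905, adjusted p = 0.00224), while its second probe set did not pass (0.05, adjusted p = 0.472). DYRK3 had 9.95 and 9.84 in testis, against 7.73 and 7.95 in ovary (2.06, SE 0.105, adjusted p = 0.00399). A second DYRK3 probe set stood at 13.13 and 13.16 in testis, against 3.63 and 3.15 in ovary, a difference of 9.75 (SE 0.207, adjusted p = 0.00121), with 1 of the ovary pools below background. The probe set that stood for DYRK3 was the brighter in ovary, and the 2 differed in size far beyond their standard errors. DYRK2 (0.0502 and 0.0523) and DYRK3 (0.0627 and 0.061) failed without testis pool 1 or 2.

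Of 9 relatives and partners of the DYRK kinases, 6 were called for testis (24.3% of all genes were) and 2 for ovary (28.7%), with a median difference of 0.69. HIPK2 was at 9.33 and 9.50 in testis, against 4.24 and 3.79 in ovary (5.40, limma adjusted p = 0.00254), although another of its 4 probe sets was called for ovary. HIPK1 (2.43, adjusted p = 0.0268) and the splicing kinase gene PRPF4B (1.13, adjusted p = 0.00149) were higher in testis. CLK2, a kinase of splicing factors, was higher in ovary (-2.18, adjusted p = 0.000963), as was DCAF7, a DYRK-binding protein gene (-0.36, adjusted p = 0.0299). HIPK1 (0.193 and 0.162) and DCAF7 (0.136 and 0.161) failed without testis pool 1 or 2, HIPK2 without testis pool 2 (0.0506), and DCAF7 without ovary pool 1 or 2 (0.0629 and 0.0937).

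Probe sets of the same gene did not always tell the same story. Of the 61 genes with at least 2 probe sets, 3 (NEK2, STK35 and CSNK1G1) had probe sets called in both directions, which is 4.92%, against 3.94% of all genes with at least 2. A further 5 genes (MAPK14, MAPK8IP1, MAP4K4, STK24 and STK25) were called on a dimmer probe set and not on the brightest. In 27 of the 76 genes no probe set was called. Of the 199 probe sets, 54 were below background in all 4 pools. Of the 44 genes called, 17 (38.6%) kept their call and direction with each pool left out in turn, against 42.5% of all genes called. These 17, judged on the brightest probe set alone, include TSSK6, NEK2, NEK5, NEK7, STK31, STK40, MAP3K19, MAP3K13, MAP2K2, MAP2K3, MAP2K4, MAPK8, MAPK15, MAPK4, DYRK1A, CSNK1D and CSNK2A2.

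**Figure D5:**
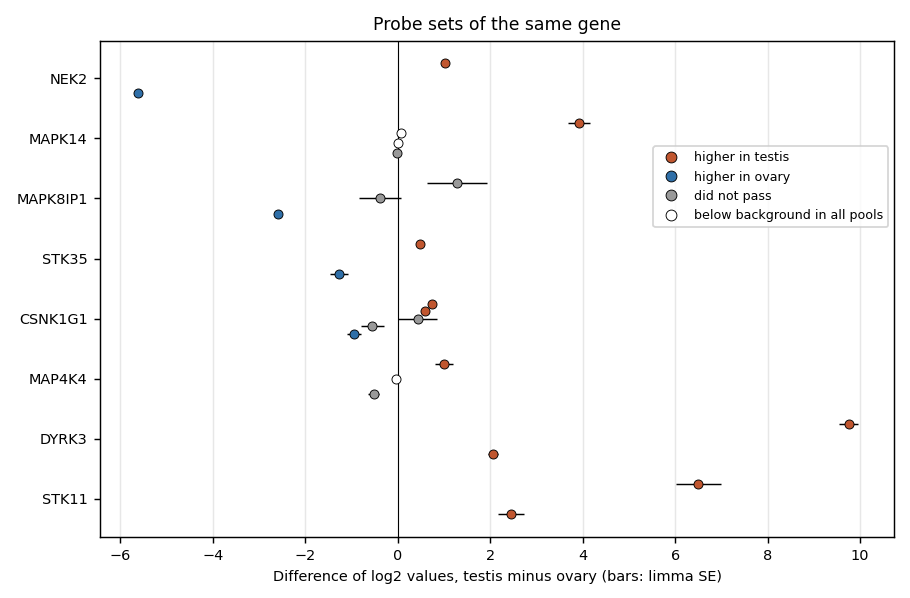
Difference of log2 values (testis minus ovary, horizontal axis, bars show the limma standard error) for every probe set of 8 genes chosen after their values were seen because their probe sets disagree in direction or size. NEK2, STK35 and CSNK1G1 have calls on both sides of 0, and the DYRK3 and STK11 probe sets share a side and lie far apart.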

How the data were processed

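The authors deposited log2 expression values per probe set for 4 arrays. The submitters' processing notes list GCRMA and MAS5 without saying what each was used for, and per the series design the arrays were checked with affyPLM. No further normalization was applied. The 153 control probe sets were left out. Pools of the same organ correlated at r = 0.995 (testis) and 0.991 (ovary) over probe sets. Testis was compared with ovary in limma 3.58.1 (R 4.3.3; lmFit and eBayes, two-sided, 2 residual and 0.741 prior degrees of freedom), with Benjamini-Hochberg adjustment over 38382 probe sets. The script was tested on simulated data.

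The p-values rest on the spread between pools of 4 animals, moderated in limma towards a prior variance estimated over all probe sets. No pool was measured on repeated arrays, so that spread includes array noise, which cannot be told apart from differences between pools. Precision is limited by having 4 arrays. For 2 pools against 2, the smallest p an exact permutation test can give is 0.333. When a pool is dropped, its partner is assumed to vary like the other organ's pools.

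The background level is the 99th percentile of 689 probe sets recognised by name as being for other sequences. An organ was at background where both of its pools lay at or below that level. A fold written "at least" compares the mean of the brighter organ with that level.

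Gene names are those of the platform annotation. They were not checked against probe sequences, so which of several paralogs a probe set measures was not tested. The 2 probe sets listed under both C15orf61 and MAP2K5 were not counted. Chromosomes came from a gene table of assembly GRCg7b, where 75 members matched by gene number and 1 by symbol.

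The members, the partner and marker lists and the tests were chosen with earlier results of these data known. Values in every pool were given for all TSSK and NEK genes, for up to 4 called genes per direction in each other family by size of difference, and for genes with probe sets called in opposite directions. In the partner lists up to 3 called genes per direction were named by size, and others named there were chosen after their values were seen. The alternatives were leaving out dim probe sets, quantile normalization, median centring, robust moderation, a mean-variance trend, a floor at background, the pool number as a block, a threshold of 0.01, each pool left out, other background levels, the mean of all probe sets of a gene, and, added after the data were seen, probe sets with shared or cross-matching probes left out.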

Additional observations from a re-analysis of the deposited data

How the results depend on the processing

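With 1 pool left out, the member genes called numbered 11 to 22 in testis and 11 to 18 in ovary, against 23 and 21 with all pools, and the member probe sets 20 to 36 and 21 to 39, against 39 and 40. The lowest counts came without a testis pool. At an adjusted p of 0.01 the counts were 15 genes and 24 probe sets in testis, and 14 genes and 26 probe sets in ovary. Without probe sets whose probes are shared between transcripts or match other sequences, an alternative chosen after seeing the data, 24 of the 137 member probe sets left were higher in testis and 28 in ovary. Counting a probe set as on in 1 organ alone depended on the background level. It gave 7 in testis and 6 in ovary, 6 and 2 at the 95th percentile, and 11 and 6 at each array's own highest value for other sequences. With the mean of all probe sets of a gene in place of the brightest, 23 genes were called for testis and 19 for ovary.

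The pool numbers are not stated to pair the samples, and the deviations of same-numbered pools correlated at 0.0524 over probe sets. With the pool number as a block, 16 member genes were called for testis and 16 for ovary, and 29 and 32 probe sets, and 10 of the 45 member genes named by the rule lost their call (CSNK1G1, CSNK2A1, MAP3K14, MAP3K7CL, NEK1, NEK4, NEK9, STK11, STK17B and STK35, at adjusted p from 0.0501 to 0.111).

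The fits with a pool left out were read for every called member and partner gene. The other alternatives were read gene by gene for these 45 alone. Among them the only changes of direction were in NEK3 and NEK8, which had not passed. NEK3 was at -0.02 with median centring, -0.05 without ovary pool 1 and -0.10 without testis pool 1 (0.19 without testis pool 2), and NEK8 at -0.06 with median centring. Robust moderation and the variance trend ended no call among the 45, quantile normalization ended that of MAP3K14 (adjusted p = 0.0712), leaving out dim probe sets that of MAPK9 (0.0579), and the floor at background those of MAP3K14 (0.0692), MAP3K7CL (0.0658), NEK9 (0.0507) and STK35 (0.0618). The cause was not tested.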
